A study of Mus musculus with 30 samples.

Results

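The polyamine genes of the mouse ventral prostate (VP) were followed in 30 RNAseq libraries. The 10 genes were chosen by symbol, out of 39179 gene identifiers in the count tables: Odc1, Amd1, Srm and Sms for synthesis, Sat1, Smox and Paox for breakdown, and Oaz1, Oaz2 and Azin1 for the control of ornithine decarboxylase protein. All 10 were found, and all 10 passed the filter on low counts in every comparison. The lowest single count of any of them was 160 read pairs, for Smox, and the highest was 35563, for Amd1. The libraries came from male C57BL/6 mice, fed isocaloric diets of normal fat content from weaning on, and the groups differed in the fat of the diet and in its duration. Linseed oil (LO), soybean oil (SO) or pork fat, that is lard (PF), was given for 12 or 32 weeks, with 5 libraries in each of the 6 groups. The labels number the libraries of a group from 1 to 5 and do not state whether glands were pooled, so the p-values measure the spread between these libraries, called mice below. The 32-week mice were also older than the 12-week mice, and duration of the diet, age and any difference in handling between the time points cannot be told apart.

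Polyamines are small positively charged molecules that bind nucleic acids and are needed for growth, and the prostate is known for making and secreting large amounts of spermine. Ornithine decarboxylase turns ornithine into putrescine, spermidine synthase and spermine synthase then add aminopropyl groups from decarboxylated S-adenosylmethionine, and spermidine/spermine acetyltransferase and a pair of oxidases run the route backwards. Odc1 is a classical androgen-responsive gene of the rodent prostate. Much of the control lies after transcription, since antizymes bind ornithine decarboxylase and send it to the proteasome, and antizymes themselves are made through a ribosomal frameshift that polyamines promote. The counts report mRNA only, and neither protein nor polyamines were measured in these files.

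The frameshift site is shown for Oaz1 and Oaz2 because it separates what an antizyme mRNA count reports from antizyme protein. The sites were read 5′ to 3′ on the plus strand from GENCODE M21 transcripts on GRCm38, at chr10:80828280-80828309 for Oaz1 and chr9:65686257-65686286 for Oaz2. The capitals mark the last codon read before the shift followed by the in-frame stop codon, whose first base is skipped when the ribosome shifts.
Oaz1: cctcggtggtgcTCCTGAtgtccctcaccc
Oaz2: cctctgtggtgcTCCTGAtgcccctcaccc
The 6 capital bases were the same in both genes, and the annotation leaves out the skipped base in 4 Oaz1 and 3 Oaz2 transcripts.

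The sequence before the start site is shown for Odc1, which changed over time in one diet, for Sat1, the main gene of polyamine breakdown by level, and for Oaz1, the main antizyme gene by level. It was taken from the RefSeq promoter table on GRCm38.p6, which held 8 of the 10 genes, Srm and Azin1 being the other two. For Odc1, 79 bases that GENCODE counts as transcribed were left out. The windows were chr12:17544623-17544793 on the plus strand for Odc1, chrX:155216450-155216699 on the minus strand for Sat1 and chr10:80826406-80826655 on the plus strand for Oaz1. Capitals mark GC boxes.
Odc1: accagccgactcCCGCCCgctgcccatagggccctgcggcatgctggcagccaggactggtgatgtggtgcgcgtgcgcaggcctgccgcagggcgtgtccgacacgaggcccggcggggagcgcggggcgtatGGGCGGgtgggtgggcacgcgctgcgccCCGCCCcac
Sat1: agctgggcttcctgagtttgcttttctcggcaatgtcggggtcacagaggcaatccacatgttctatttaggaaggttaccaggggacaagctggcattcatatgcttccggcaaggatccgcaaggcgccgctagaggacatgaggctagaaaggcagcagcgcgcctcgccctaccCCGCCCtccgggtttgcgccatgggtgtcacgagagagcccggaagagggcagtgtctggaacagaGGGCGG
Oaz1: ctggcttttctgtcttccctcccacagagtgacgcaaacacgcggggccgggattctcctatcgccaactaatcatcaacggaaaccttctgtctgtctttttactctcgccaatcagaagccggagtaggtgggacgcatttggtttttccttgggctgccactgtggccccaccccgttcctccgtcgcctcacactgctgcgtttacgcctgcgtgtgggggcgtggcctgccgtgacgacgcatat
The letters GGGCGG, the GC box, were searched on both strands and occurred 3 times in the printed Odc1 window, 2 times in that of Sat1 and 0 times in that of Oaz1. Of 32851 windows of 250 bases before a start site, 32.7% held a GC box. The E-box CACGTG occurred 0 times in the 3 printed windows and in 6.02% of all windows. TATAAA (12.4% of all windows), the cyclic AMP response element TGACGTCA (1.55%) and the palindromic androgen response element (0.00913%) were not matched in any window of the 8 genes. A match is a description of letters, and the absence of one says nothing on the factor.

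The libraries were high in prostate secretory genes and held little of seminal vesicle genes. Markers of the other prostate lobes were not checked. The summed level of 4 secretory genes (Sbp, Spink1, Msmb and Pbsn) took between 13.02% and 29.97% of the counts on genes in each mouse, while 5 seminal vesicle genes summed to at most 0.306 CPM. Each mouse had 27590631 to 41301707 read pairs counted on genes. Entries for alignment to several places made up 15.98% to 20.26% of all entries tallied in counting, which hold no unaligned pairs. They were not counted on genes, which lowers the counts of genes with near-identical copies. The 6 mice numbered 1 stood apart from the other 24. Of 16605 genes, 1738 (10.5%) were highest in mouse 1 of every group, and Oaz1 and Smox were among them. What the number stands for is not given in the sources used here. The edgeR tests below and the correlations between polyamine genes were also run without these 6 mice.

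The level per length, as CPM per kb of exons and scaled by TMM, put the enzymes of putrescine and aminopropyl supply first. Amd1, which makes the aminopropyl donor, had a median of 197 CPM per kb over the 30 mice (range 147 to 317). Odc1, which makes putrescine, followed at 113 (77.8 to 172), and Oaz1, the main antizyme, at 68.7 (55.1 to 142). Sat1 stood at 50.8 (38.5 to 63.7) and Srm, spermidine synthase, at 47.6 (28.8 to 85.5). These 2 neighbours could not be ordered, since Sat1 was above Srm in 17 of 30 mice. Azin1, an inactive relative of ornithine decarboxylase that binds antizyme, was at 27.1 (22.3 to 31.8), and Oaz2 at 21.2 (18.4 to 27.6). Sms, spermine synthase, was far lower at 4.86 (4.18 to 5.36). Smox, which oxidises spermine, had 2.17 (1.44 to 3.76), and Paox, which oxidises the acetylated polyamines, had 1.61 (1.23 to 2.01). Apart from Sat1 and Srm, each gene was above the next in at least 28 of 30 mice. With the longest transcript as length, Sat1 (104) came before Oaz1 (69.5), and all other ranks stayed. With the longest protein-coding transcript, Oaz1 was at 164 and the order was that of the exon union.

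**Figure D1:**
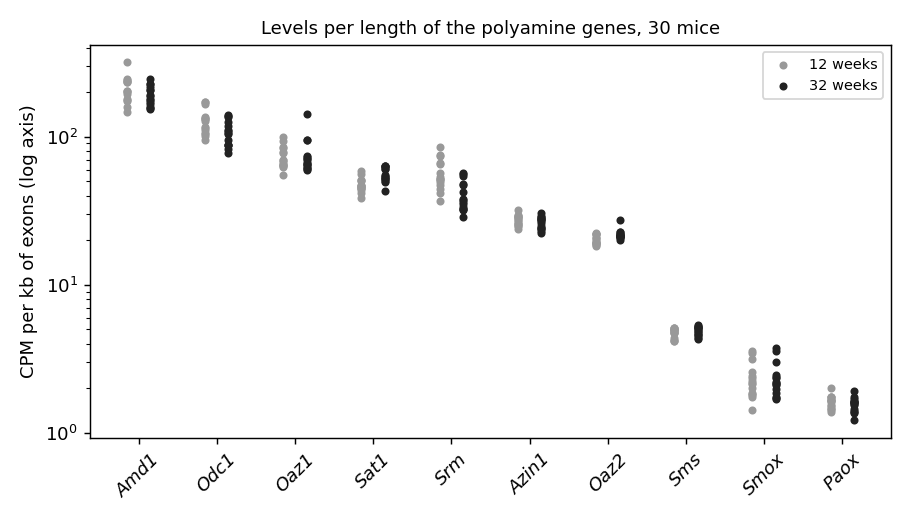
Level of each polyamine gene in CPM per kb of exons (vertical log axis) for the 15 mice of 12 weeks (grey) and the 15 of 32 weeks (black), 1 point per mouse. Amd1 is highest, at 147 to 317, and Paox lowest, at 1.23 to 2.01, while the points of Sat1 and Srm overlap.

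Some of these counts are less certain than others because of near copies. Of the 100-base windows of its longest coding transcript, Amd1 shared 76.4% with Amd2 or Amd pseudogenes, Oaz1 41.8% with Oaz1-ps, Sms 27.7% with Sms-ps and Gm6292, Paox 25.4% with Gm19680 and Odc1 19.6% with several pseudogenes. Srm and Smox shared 0% and Sat1 0.376%. Paox also overlaps Echs1 on the opposite strand, and the strand setting of the counting is not given in the sources used here. Read pairs from shared stretches may have been set aside, so that these levels can be too low, and changes of Amd1 and Amd2 cannot be told apart with certainty.

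From 12 to 32 weeks, 2 of the 10 genes changed in SO mice, and both fell. Odc1, the first enzyme of the route, was 471 ± 107 CPM (mean ± SD, n = 5) at 12 weeks and 328 ± 39.8 CPM (n = 5) at 32 weeks. Srm, which makes spermidine, went from 92.8 ± 30.7 to 58.6 ± 17.7 CPM (n = 5 each). In the SO mice 1.22% of all genes tested fell and 5.25% rose, 6.46% together. An unadjusted p under 0.05 was reached by 3 of 10 polyamine genes, against 19.7% of all genes. In LO mice 0 of 10 polyamine genes passed by edgeR, where 2.7% of all genes did (1.74% higher and 0.958% lower), and 4 of 10 had an unadjusted p under 0.05, against 20.5% of all genes. In PF mice 0 of 10 passed, where 0.0301% of all genes did, and 2 of 10 had an unadjusted p under 0.05, against 10.2% of all genes. DESeq2 called Odc1 and Srm in SO mice (5.59% of genes), Srm in LO mice (4.08%) and 0 of 10 in PF mice (0.195%). The DESeq2 shares are of 26704 genes, since the filter on low counts was not applied there, and are not on the same base as those of edgeR.

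The Odc1 values of the SO mice at 12 weeks were 359, 394, 433, 586 and 582 CPM, in the order of the mouse numbers. At 32 weeks they were 379, 326, 279, 300 and 353 CPM. The groups overlapped through mouse 1 of each, the lowest of the 12-week and the highest of the 32-week group. Odc1 fell by 0.52 on the log2 scale (SE 0.156, 95% confidence interval -0.84 to -0.20), with an adjusted p of 0.0415 by edgeR's quasi-likelihood test with Benjamini-Hochberg adjustment over 16605 genes. Without the mice numbered 1 it fell by 0.66, with an edgeR adjusted p of 0.0263.

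The Srm values of the SO mice at 12 weeks were 107, 70.6, 59.0, 90.8 and 137 CPM. At 32 weeks they were 89.9, 46.0, 52.2, 53.3 and 51.7 CPM, and mouse 1 alone lay inside the range of the 12-week group. Srm fell by 0.66 on the log2 scale (SE 0.201, 95% confidence interval -1.08 to -0.25), with an edgeR adjusted p of 0.0451. Without the mice numbered 1 it fell by 0.80, with an edgeR adjusted p of 0.02.

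Both calls were close to the threshold. With each SO mouse left out in turn, the edgeR adjusted p of Odc1 ranged from 0.0283 to 0.124 and that of Srm from 0.00633 to 0.168, always with a fall. Odc1 no longer passed without mouse 3 (0.0501), 4 (0.118) or 5 (0.124) of 12 weeks, or without mouse 2 (0.0684), 3 (0.109) or 4 (0.116) of 32 weeks. Srm no longer passed without mouse 1 (0.095), 4 (0.0722) or 5 (0.168) of 12 weeks, or without mouse 2 (0.102), 3 (0.0994), 4 (0.12) or 5 (0.0861) of 32 weeks. Neither passed when only the SO mice were in the fit, at adjusted p of 0.0611 for Odc1 and 0.141 for Srm.

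The scaling decided which genes passed. With plain totals in place of TMM, the median of all genes rose by 0.19 on the log2 scale in SO and by 0.16 in LO mice over time, and 16.9% and 8.28% of genes passed. Of the polyamine genes, 0 of 2 calls were higher in SO mice with TMM, where 871 of 1073 calls over all genes were higher. With plain totals 3 of 3 were higher, namely Sat1 (0.43), Sms (0.27) and Oaz2 (0.24). That was the direction of nearly all calls with plain totals, 2770 of 2802 over all genes. The fall of Odc1 was then 0.32 (adjusted p 0.104) and that of Srm 0.46 (adjusted p 0.0859). In LO mice plain totals gave Sat1 (0.38) and Oaz2 (0.32) as higher, where 1323 of 1375 calls over all genes were higher. Under both scalings the SO estimates of Odc1 and Srm were below 0 and those of Sat1, Oaz2 and Sms above 0. The sizes and the calls differed. With TMM the change of Sat1 was 0.24 (interval 0.02 to 0.46). Those of Oaz2, 0.05 (interval -0.09 to 0.18), and Sms, 0.07 (interval -0.08 to 0.22), had intervals on both sides of 0. The median change of the 10 genes under TMM was -0.04 in SO, -0.08 in LO and 0.06 in PF mice, beside -0.0044, -0.0124 and 0.0033 for all genes.

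**Figure D2:**
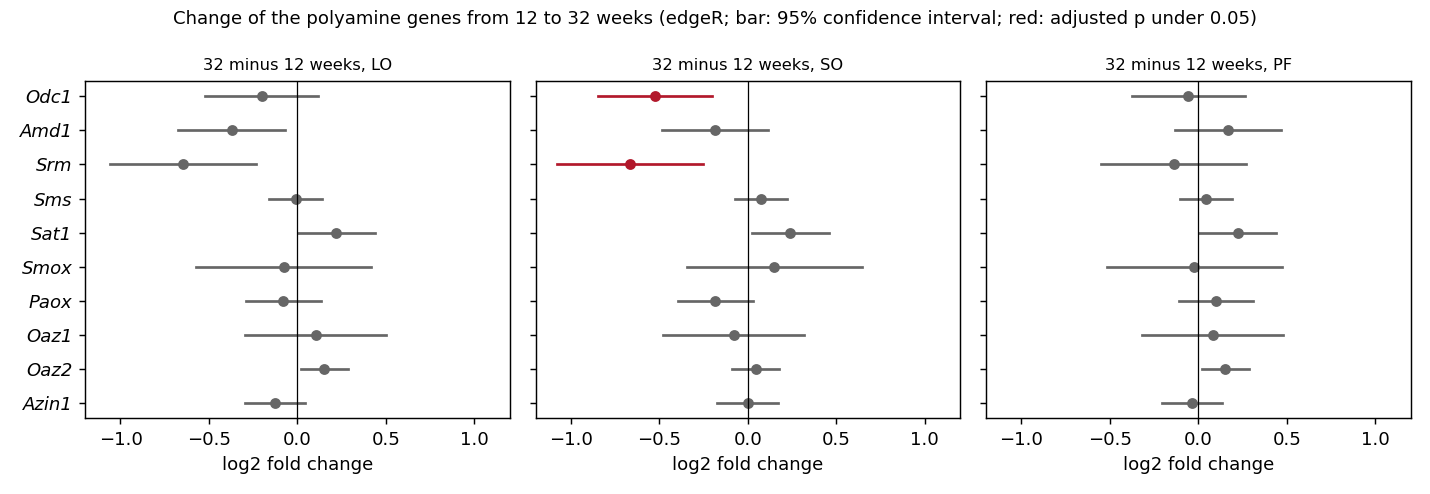
Log2 fold change from 12 to 32 weeks of each polyamine gene in LO, SO and PF mice (points) with its 95% confidence interval (bars), from edgeR on 30 mice; red marks an adjusted p under 0.05. Odc1 (-0.52) and Srm (-0.66) in SO mice are red, and Sat1 lies between 0.22 and 0.24 in all 3 diets.

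Markers of other cell types and secretory genes moved in the same SO mice. The summed TMM-scaled level of 6 leukocyte genes was 34.3 to 54.4 CPM at 12 weeks and 58.7 to 166 CPM at 32 weeks, and 5 of the 6 rose (Ptprc, Cd68, Adgre1, Cd3e and Cd79a). The sum of 4 basal epithelial genes was 75.9 to 107 and then 109 to 163 CPM, and Krt15 and Trp63 rose. The 4 secretory genes took 22.9% to 28.5% of the counts on genes at 12 weeks and 16.2% to 18.3% at 32 weeks, and Sbp fell. None of these markers was at 0 in all mice. In LO mice 3 of 4 basal genes rose and Sbp fell. The secretory share of LO mice was 21.2% to 29.1% at 12 weeks and 13.02% to 20.4% at 32 weeks, likewise without overlap. Their leukocyte sum was 38.1 to 76.7 CPM and then 50.8 to 179 CPM, with overlap, and no leukocyte gene passed. In PF mice no gene of these lists passed. The part of these shifts in the falls of Odc1 and Srm was not tested, and in whole tissue fewer cells of a type and less RNA per cell cannot be told apart.

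The fall of Srm in LO mice was of the same size but missed the threshold. The LO values at 12 weeks were 120, 118, 104, 79.3 and 66.5 CPM, and those at 32 weeks were 76.4, 59.7, 51.5, 67.9 and 56.1 CPM. The groups overlapped, since the lowest mouse of 12 weeks lay below the 2 highest of 32 weeks. The log2 change of -0.65 (SE 0.201) had an edgeR adjusted p of 0.0691, which ranged from 0.0459 to 0.212 over the alternatives and left-out mice of the edgeR test, and of 0.0328 by DESeq2. It passed without mouse 5 of 12 weeks, at 0.0491, and with the replicate number as a block, at 0.0459. Of all genes 4.02% passed with the block, 2.78% without the mice numbered 1 and 1.17% with no filter, and 8.04% had an adjusted p under 0.1. In PF mice Srm was 81.6 ± 3.61 CPM at 12 weeks and 74.2 ± 15.02 CPM at 32 weeks (n = 5 each), a log2 change of -0.14 with an interval from -0.55 to 0.27.

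Odc1 went from 394 ± 59.2 to 343 ± 83.0 CPM in LO mice and from 441 ± 83.0 to 424 ± 44.997 CPM in PF mice (n = 5 each). The log2 changes were -0.20 (interval -0.52 to 0.12) and -0.06 (interval -0.37 to 0.26), and neither passed. Amd1 was 842 ± 172 and then 650 ± 90.3 CPM in LO mice, a log2 change of -0.37 with an unadjusted p of 0.017 in the edgeR fit and an adjusted p of 0.142. In SO and PF mice its log2 changes were -0.19 and 0.17 and did not pass. Sms had TMM-scaled group means between 27.8 and 29.8 CPM, and between 26.04 and 31.3 CPM with plain totals. Its log2 changes with TMM were -0.01 in LO and 0.04 in PF mice.

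Sat1, which acetylates spermidine and spermine, was higher at 32 weeks by nearly the same amount in the 3 diets with TMM scaling, without passing the test in any. Its means went from 132 ± 17.1 to 154 ± 16.8 CPM in LO, from 134 ± 18.2 to 159 ± 16.2 CPM in SO and from 129 ± 8.88 to 150 ± 21.9 CPM in PF mice (n = 5 each). The log2 changes were 0.22, 0.24 and 0.22, with edgeR unadjusted p of 0.0475, 0.0313 and 0.0453 and adjusted p of 0.238, 0.192 and 0.478. With plain totals they were 0.38, 0.43 and 0.26, and passed in LO and SO mice. The groups overlapped in every diet.

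Oaz2 was the gene whose LO groups did not overlap. Its LO values were 61.1, 56.4, 55.0, 57.4 and 57.2 CPM at 12 weeks and 64.2, 62.4, 62.9, 64.7 and 64.9 CPM at 32 weeks. The difference was 0.15 on the log2 scale with an edgeR adjusted p of 0.176, and 6.28% of all genes had LO groups that did not overlap. For all 10 genes the SO groups and the PF groups overlapped, which 13.6% and 1.16% of all genes did not do. In PF mice the log2 change was likewise 0.15 (adjusted p 0.415), and in SO mice 0.05 (adjusted p 0.744). Smox, Paox, Oaz1 and Azin1 changed by at most 0.18 on the log2 scale in either direction over time in any diet, and none passed.

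**Figure D3:**
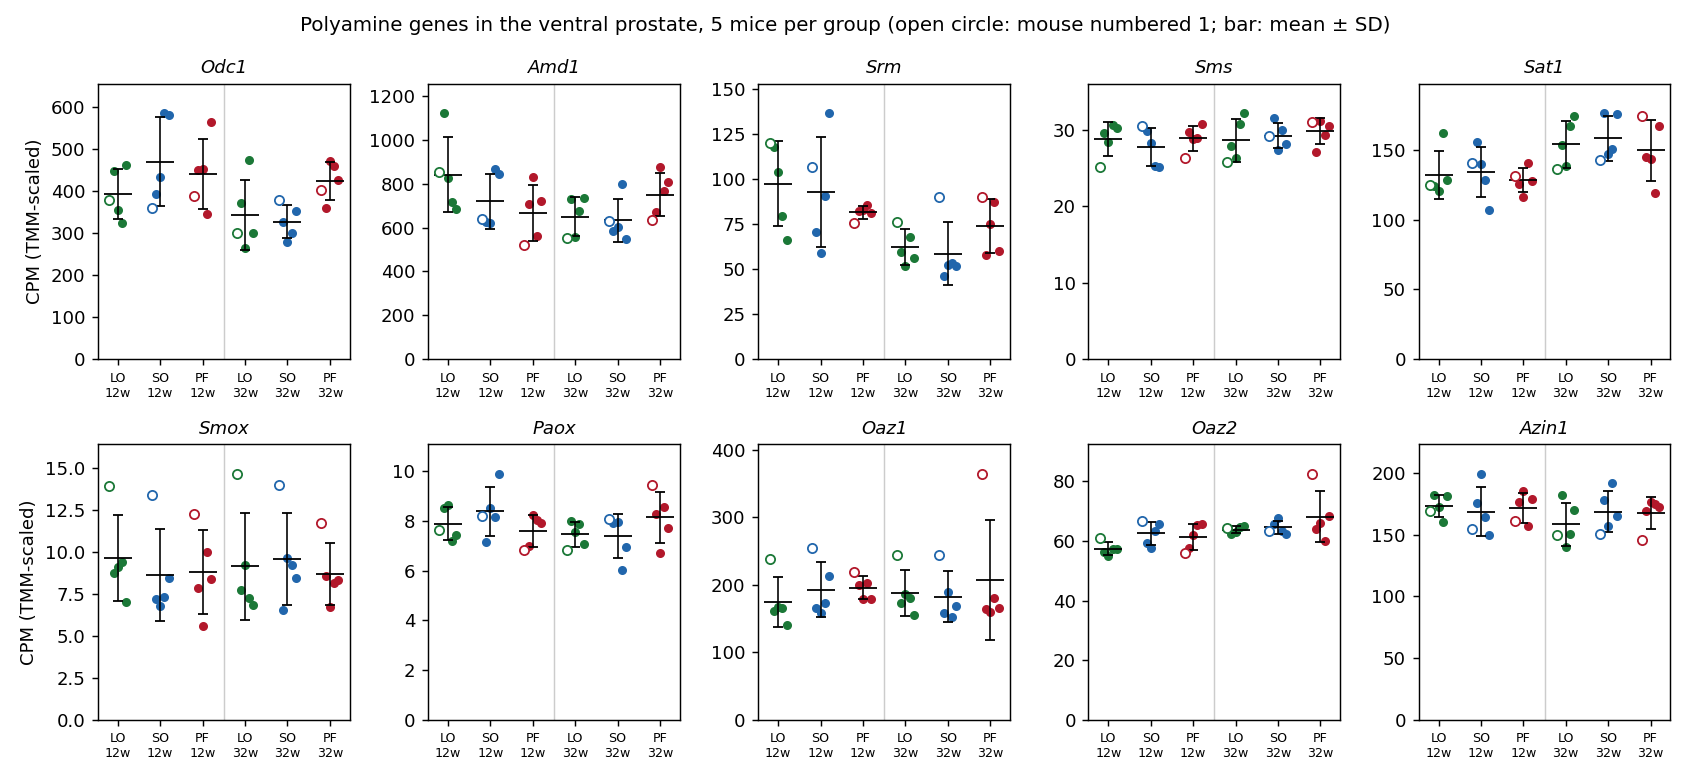
TMM-scaled CPM of each polyamine gene (vertical axis from 0) in the 6 groups, 1 point per mouse, with the mean and SD of 5 mice as bars and open circles for mice numbered 1. Odc1 of SO mice sits at 359 to 586 CPM at 12 weeks and 279 to 379 at 32 weeks, and the open circles of Smox and Oaz1 are the highest of every group.

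Between diets, no polyamine gene passed the test at 12 or 32 weeks. In each of the 6 diet comparisons 0% of all genes passed by edgeR, and by DESeq2 0 of the 10 polyamine genes passed, where 0.887%, 0.296% and 0% of genes did at 12 weeks and 0.424%, 0.331% and 0.0234% at 32 weeks. By edgeR the share depended on 1 library in PF minus SO at 12 weeks, where 131 genes passed without PF mouse 5, and 0 of the 10 polyamine genes were among them. Here and below, 3 values in a row stand for PF minus SO, PF minus LO and then LO minus SO. At 12 weeks 0 of 10 genes had an unadjusted p under 0.05 by edgeR in any of the 3 comparisons, against 7.99%, 9.24% and 4.28% of all genes. At 32 weeks the numbers were 2, 1 and 0 of 10, against 10.8%, 8.6% and 3.48%. For all 10 genes the groups overlapped in every diet comparison. Of all genes, 1.26%, 2.01% and 1.19% did not overlap at 12 weeks, and 2.98%, 2.18% and 0.656% at 32 weeks.

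Odc1 and Srm differed most between PF and SO mice at 32 weeks with TMM scaling, without passing the test. Odc1 of PF mice was 402, 361, 472, 460 and 427 CPM, against 379, 326, 279, 300 and 353 CPM in SO mice, and the groups overlapped through PF mouse 2 and SO mouse 1. The log2 difference was 0.39 (SE 0.139, interval 0.10 to 0.69), with an edgeR unadjusted p of 0.0129 and an adjusted p of 0.385. Against LO mice (301, 373, 265, 474 and 301 CPM) it was 0.32 (interval 0.03 to 0.62, unadjusted p 0.0351 and adjusted p 0.543 by edgeR). The SO and LO comparisons share the PF mice. Amd1 was higher in PF than SO mice by 0.26 (interval 0.01 to 0.52, edgeR adjusted p 0.448), and Srm by 0.36 (interval -0.05 to 0.77, edgeR adjusted p 0.505). Plain totals lowered the median of all genes by 0.15 in PF against SO and by 0.17 in PF against LO, and the Odc1 difference from SO was then 0.24 and that of Srm 0.20. Some marker lists had higher medians in PF than in SO mice, with ranges that overlapped. The 4 secretory genes took 14.4% to 27.7% of the counts on genes in PF mice and 16.2% to 18.3% in SO mice. The summed TMM-scaled level of 4 adipocyte genes was 8.94 to 182 CPM in PF and 3.93 to 93.5 CPM in SO mice, and that of 5 red blood cell genes 42.4 to 499.7 CPM and 26.9 to 78.7 CPM. The leukocyte and basal epithelial sums had lower medians in PF than in SO mice, at 77.0 against 105 CPM and 119 against 152 CPM. No gene of these lists passed the test, none was at 0 in all mice, and their part in the Odc1 difference was not tested.

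The breakdown genes and the antizyme genes did not pass either at 32 weeks. Sat1 of PF mice was below SO by 0.06 (interval -0.29 to 0.17), Paox above by 0.16 (interval -0.09 to 0.41) and Oaz2 above by 0.10 (interval -0.07 to 0.27), with edgeR adjusted p of 0.875, 0.636 and 0.672. With plain totals Oaz2 was below, at -0.05. Oaz1 was above by 0.21 (interval -0.29 to 0.71), and the difference of Smox was -0.11 (interval -0.63 to 0.40), the 2 widest intervals of the 10 genes. Oaz1 was 364 CPM in PF mouse 1 and 159 to 181 CPM in the other PF mice. Its medians were 166 CPM in PF, 168 CPM in SO and 180 CPM in LO mice. Sms and Azin1 were the closest to 0, at 0.05 and 0.01. Against LO mice, the PF differences were 0.22 for Amd1, 0.27 for Srm, 0.07 for Sms, -0.02 for Sat1, -0.06 for Smox, 0.14 for Paox, 0.16 for Oaz1, 0.11 for Oaz2 and 0.09 for Azin1. LO and SO mice differed by at most 0.10 for any polyamine gene at 32 weeks.

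At 12 weeks the largest difference with TMM scaling was that of Amd1 in PF against LO mice, at -0.33 (interval -0.67 to 0.01, edgeR adjusted p 0.559), and it was -0.35 with plain totals. Amd1 was -0.10 in PF against SO and 0.23 in LO against SO mice. Odc1 was -0.09, 0.17 and -0.26 in the 3 comparisons, the last with an interval from -0.60 to 0.09 and an edgeR adjusted p of 0.999. Among the other synthesis genes, the spread over mice of Srm was wide in LO and SO mice (SD 23.8 and 30.7 CPM). In PF mice it was narrow (SD 3.61 CPM), and that of Sms was narrow in all 3 diets. Srm was -0.18, -0.25 and 0.08, and Sms 0.06, 0.01 and 0.05. Of the breakdown genes, Sat1 was -0.06, -0.04 and -0.02, Smox 0.04, -0.12 and 0.16, and Paox -0.14, -0.05 and -0.09. The genes that control ornithine decarboxylase protein did not pass either. Oaz1 was 0.03, 0.17 and -0.14, Oaz2 -0.02, 0.10 and -0.12, and Azin1 0.03, -0.01 and 0.04.

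**Figure D4:**
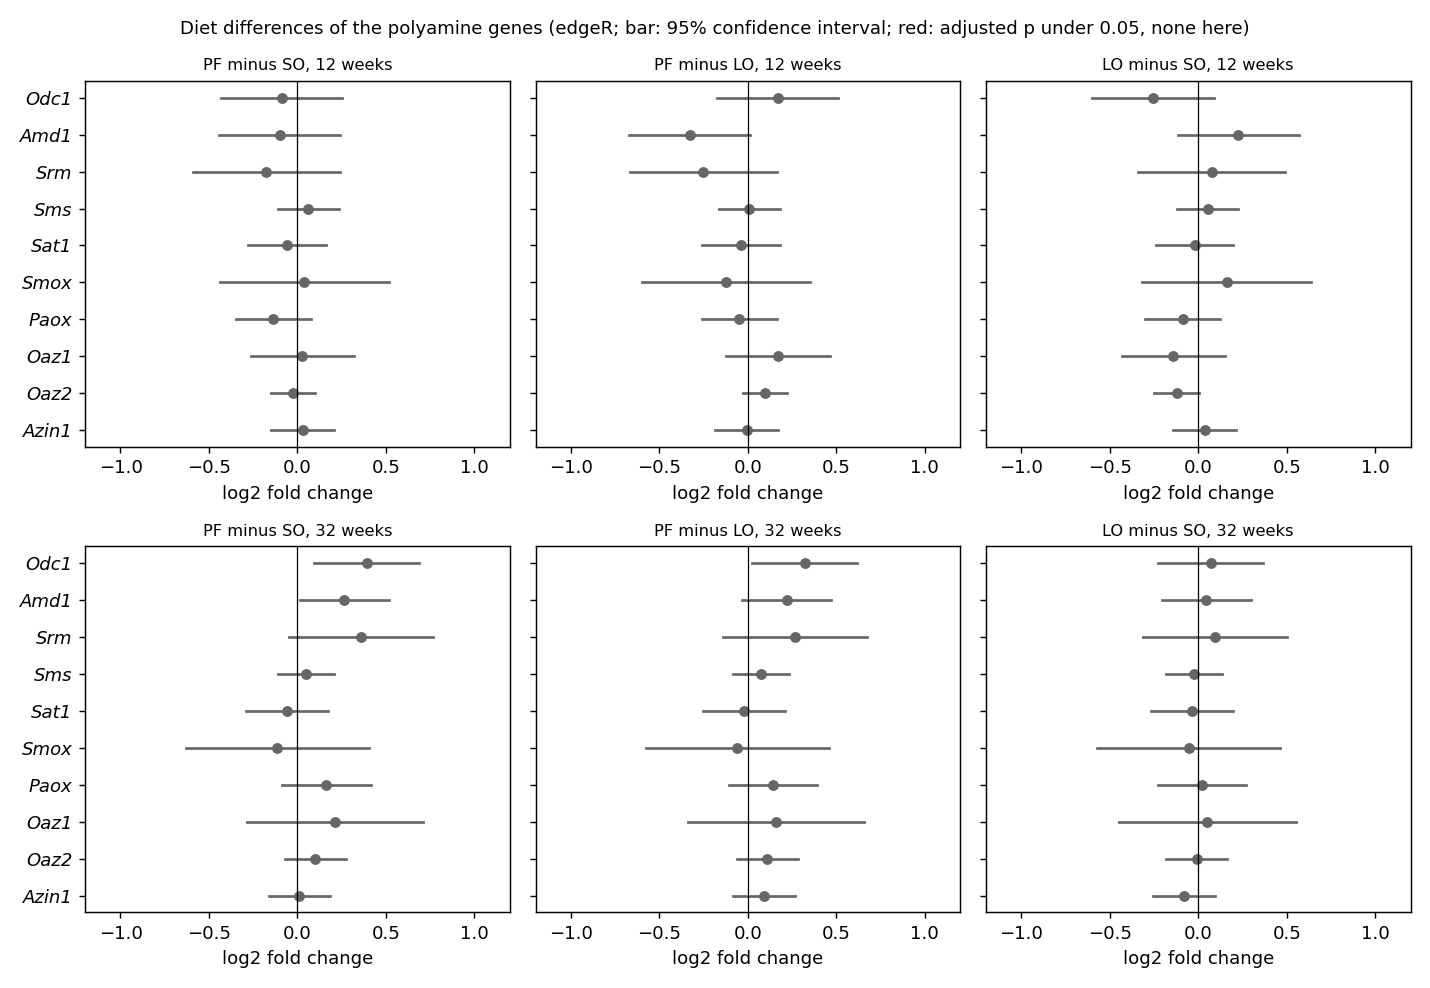
Log2 difference between diets of each polyamine gene at 12 weeks (upper row) and 32 weeks (lower row), as points with 95% confidence intervals from edgeR on the 15 mice of a time point. No gene passed; the interval of Odc1 lies above 0 for PF against SO (0.10 to 0.69) and PF against LO (0.03 to 0.62) at 32 weeks.

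Whether the diets differed in their change over time was tested as an interaction, and 0 of 10 genes passed by edgeR or by DESeq2. Of all genes 0% passed by edgeR in each of the 3 interactions, and 0.165%, 0.0449% and 0% by DESeq2. An unadjusted p under 0.05 was reached by 1, 1 and 0 of the 10 genes in edgeR, against 9.49%, 7.79% and 3.33% of all genes. The fall of Odc1 in SO mice is therefore not shown to differ from the change in PF mice. Its interaction was 0.47 (interval 0.02 to 0.92), with an edgeR unadjusted p of 0.0427 and an adjusted p of 0.507. For Srm it was 0.53 (interval -0.06 to 1.11, edgeR adjusted p 0.591). Amd1 had the smallest p of the 10 genes, in PF against LO, at 0.54 (interval 0.12 to 0.96, edgeR unadjusted p 0.0145 and adjusted p 0.562). For Sms, Sat1, Smox, Paox, Oaz1, Oaz2 and Azin1 the 3 interactions lay between -0.23 and 0.28. Each interaction shares the mice of its 4 groups with the comparisons above.

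Within groups the 10 genes varied to different degrees. The within-group SD of log2 CPM was 0.113 for Sms and 0.114 for Oaz2, 0.141 for Paox and 0.145 for Azin1, against a median of 0.263 over all genes tested. It was 0.226 for Odc1 and 0.211 for Amd1, and it rose to 0.307 for Srm, 0.321 for Oaz1 and 0.410 for Smox. The width of the Smox and Oaz1 intervals above goes with these values.

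The mice numbered 1 carried much of the Smox and Oaz1 spread. Smox was 11.7 to 14.6 CPM in the 6 mice numbered 1, with a median of 13.7, and 5.59 to 9.99 CPM in the other 24, with a median of 8.23. Oaz1 was 219 to 364 CPM (median 244) against 141 to 213 CPM (median 167). The values of the 6 mice lay above all of the other 24 for both genes, in all 3 diets and at both time points. Srm was highest in mouse 1 of 4 of the 6 groups, Azin1 and Amd1 in 0 of them, and Amd1 was lowest in mouse 1 of 3 groups. Base composition moved with this difference. Across 16428 genes, which share the 30 libraries and are not independent, the difference of mouse 1 from its group correlated with the GC content of the transcript at r = 0.57. The transcripts of Srm (59.8% GC), Oaz1 (56.9%) and Smox (54.5%) were above the median over these genes, and those of Azin1 (39.3%) and Amd1 (41.4%) below it. Of the other members, Oaz2 (53.2%) and Paox (50.2%) were higher in mice numbered 1, by 0.10 and 0.04 on the log2 scale. Sms (43.5%) was lower by 0.02. Odc1 (52.4%) and Sat1 (44.3%) did not follow this order, since Odc1 was lower by 0.08 and Sat1 higher by 0.03. The part of base composition in the member values was not tested. No call of a polyamine gene changed when these 6 mice were left out.

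Some of the genes varied together between mice of the same group. After centring on the group means, Smox and Oaz1 correlated at r = 0.84 over 30 mice and at 0.71 over the 24 mice not numbered 1. Sms and Sat1 correlated at 0.70 and 0.75. Both lie on the X chromosome, Sat1 at chrX:155213132-155216449 and Sms at chrX:157443855-157492287 on the minus strand, and their transcripts hold 44.3% and 43.5% GC. The part of position or base composition in this correlation was not tested. Srm and Oaz1 correlated at 0.65 and 0.43, and Oaz1 and Oaz2 at 0.63 and 0.46. The synthesis genes did not vary together as a set. Odc1 and Amd1 correlated at 0.40 and 0.36, Odc1 and Srm at 0.15 and 0.27, and Amd1 and Srm at 0.20 and 0.50. Sms went against Odc1 (-0.19 and -0.13), Amd1 (-0.14 and -0.11) and Srm (-0.45 and -0.56). Srm went against Azin1 (-0.59 and -0.53) and Sat1 (-0.50 and -0.66). These are descriptions, since the points share libraries, scaling and base composition. Among the genes most like Odc1, of 16605, were Alg5 (r = 0.63) and Zfp330 (0.62), over 30 centred mice. The 3 most like Sat1 were Rnf128 (0.83), Mboat1 (0.83) and Itgb6 (0.82). These genes were picked as the highest of 16605 values, and how high r gets by such picking alone was not tested. Without centring, r was 0.52 for Alg5 and 0.26 for Zfp330, and 0.91, 0.82 and 0.88 for the 3 Sat1 genes.

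**Figure D5:**
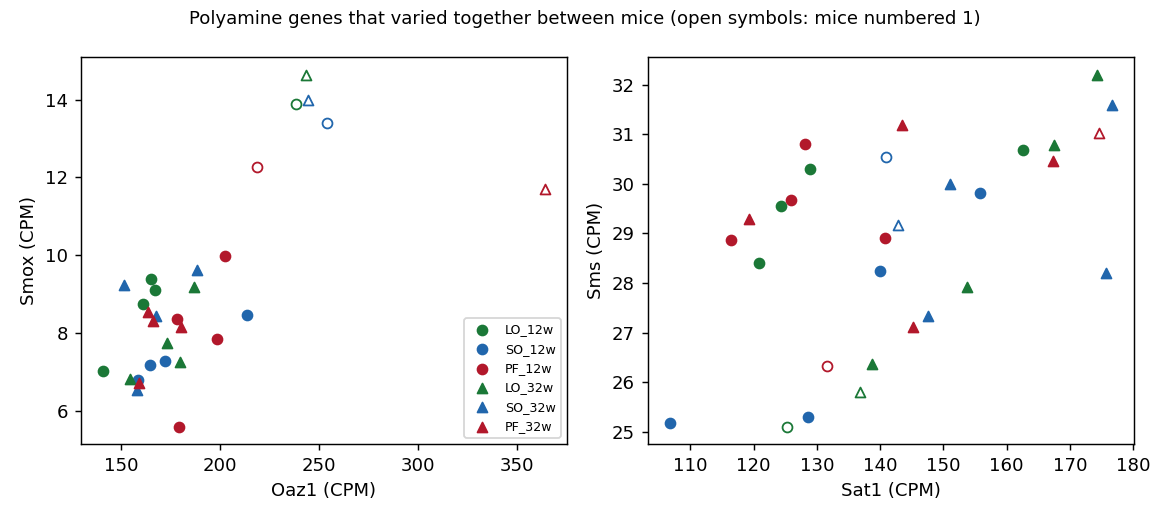
CPM of Smox against Oaz1 (left) and of Sms against Sat1 (right), 1 symbol per mouse, with circles for 12 weeks, triangles for 32 weeks, colour for diet and open symbols for mice numbered 1. In the left panel the 6 open symbols lie above 11 CPM of Smox and apart from the other 24, and in the right panel they lie among the others.

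Of 37 other genes of the pathway, 32 passed the filter, and Satl1, a relative of Sat1, had 0 CPM in every group mean. In SO mice 1 of 32 changed over time and it fell, against 6.46% of all genes that changed and 1.22% that fell. This was Aldh18a1, which makes the precursor of proline and ornithine from glutamate. Its SO values were 76.1, 77.7, 77.9, 87.3 and 109 CPM at 12 weeks and 70.4, 59.4, 55.8, 55.0 and 58.2 CPM at 32 weeks, without overlap. It fell by 0.52 on the log2 scale (SE 0.119, edgeR adjusted p 0.0104). In LO and PF mice its changes of -0.31 and -0.37 did not pass, at adjusted p of 0.131 and 0.318. In every other comparison 0 of 32 passed by edgeR. By class, the SO calls were 0 of 9 transport genes, 0 of 10 genes of the methionine cycle and salvage, 0 of 1 amine oxidases, 0 of 3 hypusination genes, 1 of 4 genes of arginine and ornithine supply and 0 of 5 paralogs.

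The paralogs were low. Azin2, a second antizyme inhibitor, had group means from 2.30 to 2.84 CPM, Oaz3, the testis antizyme, from 0.440 to 0.552 CPM, Sat2 from 5.26 to 7.02 CPM and Eif5a2 from 1.93 to 2.46 CPM. Sat2 was higher in PF than LO mice at 12 weeks by 0.42, with an edgeR adjusted p of 0.345. Amd2 was between 1.62 and 4.57 CPM in 28 mice.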

How the data were processed

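Each of the 30 deposited tables holds raw counts of read pairs per Ensembl gene, which the authors made with HTSeq after alignment of paired reads from stranded mRNA libraries. TopHat2, HTSeq, DESeq2 and the build GRCm38.p6 are named in the submitters' processing notes, and versions, annotation and strand setting are not given in the sources used here. GENCODE M21 (GRCm38) gave a symbol for 37607 of 39179 identifiers. HTSeq's rows for pairs without a gene (no feature 6.67% to 12.2%, ambiguous 0.831% to 1.18% and several places 15.98% to 20.26% of entries tallied) were left out. No 2 mice of a group agreed within sampling noise (lowest chi-square per degree of freedom 24.5 in 60 pairs).

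Groups came from the labels. Counts were filtered by filterByExpr, and scaled by TMM. edgeR 4.0.16 (R 4.3.3) was used for quasi-likelihood F tests, which are two-sided: diets in the 15 mice of a time point (15873 and 16218 genes), changes over time and interactions in all 30 (16605 genes). A call was a Benjamini-Hochberg adjusted p under 0.05 over all genes tested. SEs came from the F statistic. CPM were TMM-scaled, and log2 CPM used a prior count of 2. Alternatives were DESeq2 1.42.0, RLE factors, plain totals, no filter, a minimum of 10 counts per mouse, an adjusted p under 0.1, the replicate block, no mice numbered 1, only the groups compared, all 30 mice in one fit, and each mouse left out. DESeq2 was run without filterByExpr, and its shares are of all genes with a p-value, including any without an adjusted p. These were 25367 genes at 12 weeks, 25678 at 32 weeks and 26704 over both. The tests were tried on simulated counts first. The members, lists and rules were chosen with earlier results of these data known. By rule the text names every member (in some comparisons by a shared range), other pathway genes where called or a paralog, and the 3 genes most like Odc1 and Sat1 by r. One of those most like Odc1 and a secretory marker are not reported here.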

Additional observations from a re-analysis of the deposited data

Results flagged for a closer look

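Of 60 sets of 5 values, 10 genes in 6 groups, 6 held a mouse that lay far from the rest, its gap to the nearest other mouse being over 0.71 of the whole range. Chance alone gives about 1 in 20. In 5 of the 6 the mouse was numbered 1. Srm was 89.9 CPM in SO mouse 1 at 32 weeks, against 46.0 to 53.3 in the others. Smox was 13.4 CPM in SO mouse 1 at 12 weeks, against 6.78 to 8.46. Oaz1 was 238 CPM in LO mouse 1 at 12 weeks, against 141 to 167, and 364 CPM in PF mouse 1 at 32 weeks, against 159 to 181. Azin1 was lowest in the same PF mouse, at 145 CPM against 169 to 177. Sat1 was 163 CPM in LO mouse 4 at 12 weeks, against 121 to 129.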

How the results depend on the processing

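In SO mice over time 2 polyamine genes were called, and 0 with no filter on low counts (adjusted p 0.0501 for Odc1 and 0.053 for Srm, with 26749 genes tested), 0 with only the SO mice in the fit, and 0 to 2 with each mouse left out. In LO mice 0 were called, 1 (Srm) at an adjusted p under 0.1, by DESeq2 or with the replicate block over both time points, 2 (Sat1 and Oaz2) with plain totals, and 0 to 1 with each mouse left out. The cause of these shifts was not tested, except that no filter tests more genes. The numbers of genes called in the other 10 comparisons stayed at 0 under every alternative run, and no called gene changed direction.

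Same-numbered mice were not treated as pairs. The mean correlation of their deviations from group means was 0.0574 at 12 weeks, with 5 of 15 pairs over 0.1, and 0.1329 at 32 weeks, with 10 of 15, against -0.014 and -0.0293 for differently numbered mice, with 18 of 60 over 0.1 at each time. The 6 pairs of mice numbered 1 correlated at 0.31 to 0.49. Within a time point the replicate block left 0 genes called between diets, and over both time points it left the 2 calls in SO mice and added Srm in LO mice. The block within time points was not run for changes across them, where it cannot be separated. Plain totals, the block over both time points and the length of the longest coding transcript were added after the values had been seen.

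Smox and Paox rested on the fewest read pairs, 160 to 560 and 178 to 378 per mouse, and whether depth limited their intervals was not tested.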

Other observations

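Amd2, the near copy of Amd1, stood far above its other values in 2 mice. It was 42.6 CPM (1637 read pairs) in LO mouse 4 of 12 weeks and 26.01 CPM (868 read pairs) in SO mouse 4 of 32 weeks, against 60 to 183 read pairs in the other 28 mice. Amd1 was 719 and 799 CPM in the same mice, inside its range over all 30 mice of 520 to 1123 CPM. With LO mouse 4 included, the Amd2 difference of LO from SO mice at 12 weeks was 2.12 on the log2 scale (edgeR adjusted p 0.999). Without that mouse the LO mean fell from 11.2 to 3.40 CPM, beside 2.61 CPM in SO mice, and the SO mean of 32 weeks was 7.04 CPM with and 2.29 CPM without SO mouse 4. These means were computed after the values had been seen.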
